A study of Capra hircus with 4 samples.

Results

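RUNX1, RUNX2, FOSL2, SOX4, STAT3, HBP1, ARID5B, ARNT2 and TOX encode transcription factors (TFs) and other DNA-binding regulators of goat ovary nuclei, and they are 9 of the 28944 genes in the deposited count matrices. They were chosen because earlier readings of the same nuclei set them on the progenitor side of granulosa cells (GCs), the somatic cells that surround the oocyte. Their levels among GC states are therefore a description and carry no test. Nuclei from ovaries of 2 Nubian and 2 Du'an goats, with 1 library per goat, were sequenced with a droplet method that counts RNA molecules by their unique molecular identifiers (UMIs). All 4 goats were about 3 years old and had worn a vaginal progesterone device (300 mg, 17 days) to bring them into estrus together, with no hormone for superovulation. The Nubian goats came from a group with litters of at least 3 and the Du'an goats from a group with litters of 1, so breed and litter size cannot be told apart, and 2 animals stand for each breed.

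RUNX proteins bind DNA as partners of CBFB and steer cell identity in bone, blood and the gonads. In the ovary RUNX1 is known from the supporting cells of the fetal gonad, and RUNX2 from granulosa cells around ovulation. FOSL2 is a FOS protein that pairs with JUN proteins as AP-1. SOX4, HBP1 and TOX share the HMG box, a DNA-bending domain. STAT3 carries cytokine signals from receptors with IL6ST to the nucleus. ARID5B binds AT-rich DNA, and ARNT2 is the dimer partner of bHLH-PAS proteins such as HIF1A.

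Of 48332 nuclei in the files, 44872 were kept, between 8723 and 15848 per goat, with a median of 1755 to 3317 UMIs per nucleus and 29800057 to 54540864 UMIs per library. Between 54 and 131 barcodes were shared by any pair of libraries. Clusters were built without the 9 genes and named from marker lists, and a level is the UMI count of a gene per 1000000 UMIs (CPM) in all nuclei of a class from 1 goat, where that goat had at least 20. Sets of 4 values list Du'an replicate 1, Du'an replicate 2, Nubian replicate 1 and Nubian replicate 2 in this order, and the progenitor-like GC class held 1139, 198, 627 and 1056 nuclei. All 5 progenitor markers were up in its main subcluster, while the 9 granulosa markers, such as FSHR, summed to 2125 CPM there against 6841 CPM in cumulus-like GCs. Of these 9, CHST8 was also used to name cumulus-like GCs and INHA to name mural-like GCs, and none to name progenitor-like GCs. The sums are thus not independent of the names of the states. FOXL2, near the floor in both, averaged 0.440 CPM in progenitor-like and 3.32 CPM in mural-like GCs. The same granulosa markers also had a level outside GCs. They summed to 1131 CPM in T or natural killer-like, 1246 CPM in blood endothelial-like, 894 CPM in epithelial-like and 489 CPM in ciliated-like nuclei. Of the progenitor-like nuclei, 1149 passed the granulosa marker gate described below. The 7 stromal markers summed to 645 to 2660 CPM in progenitor-like GCs and 364 to 848 CPM in cumulus-like GCs, and the part of stromal nuclei was not tested. Mural-like GCs were almost absent from Du'an replicate 1 (1 nucleus), and each of the 3 mural-like subclusters came mostly from 1 of the other goats, so subcluster and goat cannot be told apart. A further cluster, number 4, with AJAP1, PLPP4, RSPO2, GALNT15 and APOD among its leading genes, took no name. It held 1938, 57, 45 and 2278 nuclei, so it rests on Du'an replicate 1 and Nubian replicate 2.

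RUNX2 took no part in the clustering and had the highest fold of any gene in the progenitor-like cluster against the mean of the other clusters. Its level in progenitor-like GCs was 11568, 9885, 7864 and 5997 CPM, against 524, 330, 343 and 151 CPM in cumulus-like GCs. In mural-like GCs it was 68.6, 102 and 91.0 CPM in the 3 goats that had them. Every progenitor-like value lay above every other value of the gene, with no overlap. Within a goat the level was 27.8-fold that of cumulus-like GCs (log2 difference 4.79 ± 0.39, SD, n = 4) and 89.2-fold that of mural-like GCs (6.48 ± 0.59, n = 3), with a pseudocount of 1 CPM. Among the 7939 genes with a mean of at least 10 CPM in the GC states it ranked 9 and 2 by these differences. A RUNX2 UMI was seen in 97.8% of progenitor-like nuclei, 50.8% of cumulus-like and 32.4% of mural-like nuclei, whose median depths were 4814, 4278 and 4328 UMIs. After every nucleus was thinned to 1000 UMIs the shares were 93.5%, 23.2% and 11.1%. The lowest thinned share of any class was 10.4%, in epithelial-like nuclei, which is close to that of mural-like GCs. Progenitor-like GCs, 3020 nuclei of 44872, held 69.6% of all 220958 RUNX2 UMIs (77.7%, 49.6%, 62.3% and 70.2% in the 4 goats). Du'an replicate 1 gave 101545 of these UMIs to the pool. The nuclei of this class were also deeper than the library medians of 1755 to 3317 UMIs, so shares of UMIs and of nuclei are not like measures.

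RUNX2 over the whole library was 3408 CPM in Du'an replicate 1 and 625, 662 and 1469 CPM in the others. Du'an replicate 1 also had the highest RUNX2 level in 10 of the 13 other classes with 4 goats, for example 646 CPM in lymphatic endothelial-like nuclei against 161, 162 and 423 CPM. The order of the other goats followed that of the libraries in some classes and not in others. Nubian replicate 2 had the next highest library level. Its RUNX2 level was the lowest in cumulus-like GCs, blood endothelial-like and T or natural killer-like nuclei and cluster 4. In lymphatic endothelial-like, macrophage-like, theca-like and smooth muscle-like nuclei, cycling GCs and unnamed cluster 7 it lay above Du'an replicate 2 and Nubian replicate 1. The part of free RNA in these levels was not tested. The next class by mean was cluster 4 (1752 ± 731 CPM, SD, n = 4), whose range did not reach that of progenitor-like GCs. T or natural killer-like nuclei followed (1185 ± 349 CPM), with a range that overlapped that of cluster 4.

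**Figure D1:**
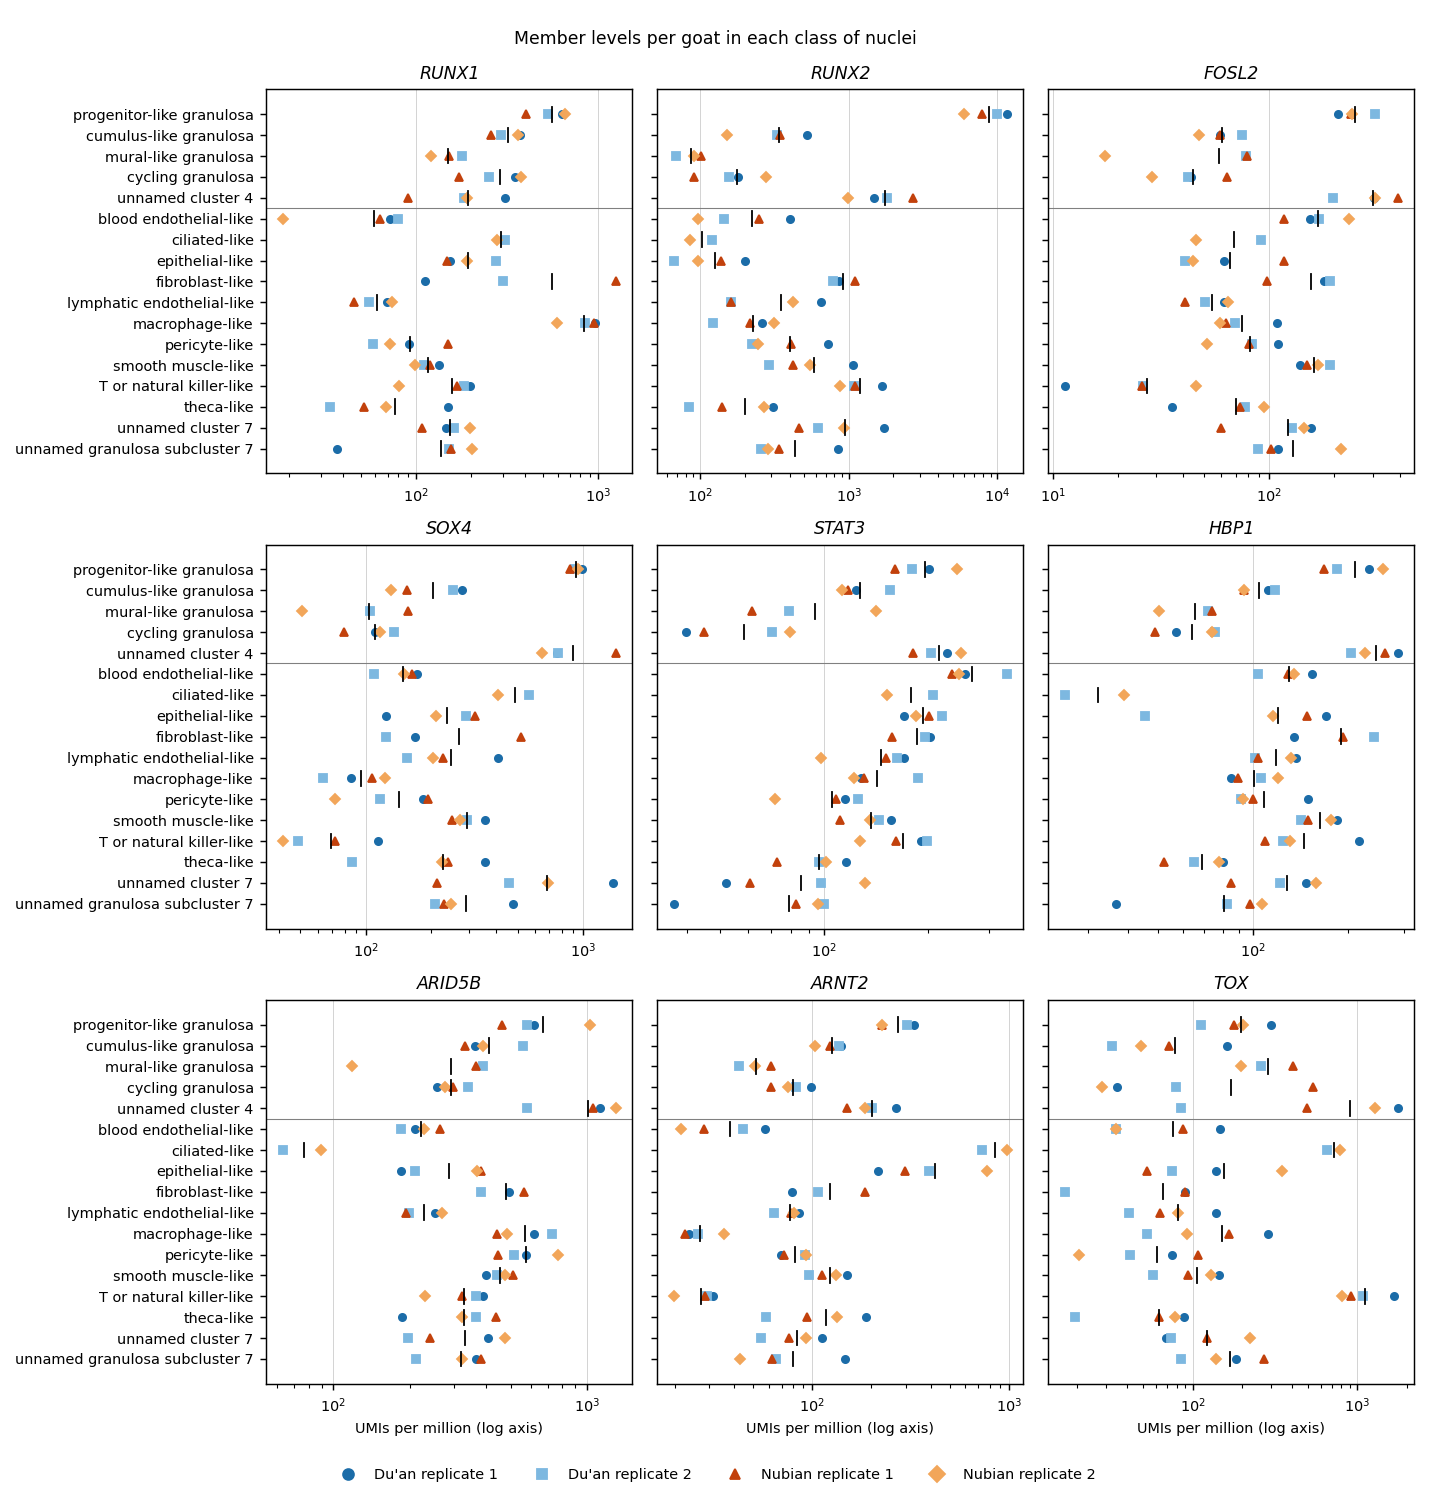
Level of each gene in CPM (log axis) for every class of nuclei, with 1 point per goat with at least 20 nuclei and a black bar at their mean; classes above the grey line are GC states and unnamed cluster 4. RUNX2 stands apart in progenitor-like GCs (5997 to 11568), whereas RUNX1 is highest by mean in macrophage-like nuclei and TOX in T or natural killer-like nuclei.

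RUNX1, the relative of RUNX2, differed far less among GC states. Its level was 633, 530, 403 and 658 CPM in progenitor-like GCs, 374, 294, 258 and 363 CPM in cumulus-like GCs, and 180, 151 and 122 CPM in mural-like GCs. The progenitor-like values lay above the others in each goat, by 1.71-fold over cumulus-like GCs (log2 difference 0.78 ± 0.10, n = 4) and 3.47-fold over mural-like GCs. The highest mean was that of macrophage-like nuclei, with 961, 854, 948 and 600 CPM, a range that overlapped the next classes. Fibroblast-like nuclei came second by mean only through Nubian replicate 1, at 1254 CPM, with 112 and 303 CPM in the Du'an goats. In cluster 4 RUNX1 was 307, 185, 90.5 and 191 CPM, below progenitor-like and cumulus-like GCs in every goat, whereas RUNX2 in cluster 4 was above cumulus-like GCs in every goat. RUNX2 in cluster 4 was still below progenitor-like GCs in all 4 goats, by 2.38 ± 0.61 on the log2 scale.

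FOSL2 stood at 208, 309, 238 and 242 CPM in progenitor-like GCs and at 59.4, 74.8, 59.1 and 47.2 CPM in cumulus-like GCs. The states did not overlap, and the log2 difference was 2.04 ± 0.22 (n = 4). In cluster 4 it was 304, 197, 392 and 308 CPM, which overlapped progenitor-like GCs. Blood endothelial-like nuclei followed with 169 ± 47.9 CPM, and the lowest mean was that of T or natural killer-like nuclei, 27.3 ± 14.0 CPM.

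SOX4, an HMG-box factor of progenitor and tumour cells in many tissues, had the smallest spread over goats, relative to its mean, of the 9 genes in progenitor-like GCs, at 988, 923, 869 and 954 CPM. Cumulus-like GCs had 277, 252, 154 and 131 CPM (log2 difference 2.26 ± 0.50, n = 4), and mural-like GCs 104, 156 and 50.8 CPM. Cluster 4 overlapped progenitor-like GCs, at 759, 767, 1417 and 645 CPM. Outside GCs the highest named class was ciliated-like nuclei, at 564 and 406 CPM in the 2 goats with enough of them.

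HBP1, an HMG-box repressor tied to the arrest of the cell cycle, was 232, 184, 167 and 257 CPM in progenitor-like GCs and 111, 118, 93.5 and 93.6 CPM in cumulus-like GCs. It was lower still in cycling GCs, 48.9 to 75.8 CPM, with no overlap with either state. Mural-like GCs were as low, at 72.2, 73.9 and 50.3 CPM, and overlapped cycling GCs. Cluster 4 had the highest mean of any class, 245 ± 37.0 CPM, with a range overlapping that of progenitor-like GCs.

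STAT3 and ARID5B showed the smallest differences from cumulus-like GCs. STAT3 was 201, 180, 160 and 243 CPM in progenitor-like GCs and 123, 156, 117 and 112 CPM in cumulus-like GCs, 0.62 ± 0.38 apart on the log2 scale (n = 4). Its highest mean was that of blood endothelial-like nuclei (268 ± 47.3 CPM), overlapping the classes that followed. ARID5B was 619, 581, 464 and 1029 CPM in progenitor-like GCs and 363, 560, 331 and 389 CPM in cumulus-like GCs. These ranges overlapped, and in Du'an replicate 2 the difference was 0.05 on the log2 scale. Cluster 4 had 1122, 580, 1056 and 1300 CPM of ARID5B, the highest mean of any class.

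ARNT2 was 330, 303, 227 and 227 CPM in progenitor-like GCs and 141, 137, 123 and 103 CPM in cumulus-like GCs, with no overlap and a log2 difference of 1.09 ± 0.15 (n = 4). GCs were not its highest site. Ciliated-like nuclei had 732 and 976 CPM (Du'an replicate 2 and Nubian replicate 2), and epithelial-like nuclei had 216, 390, 297 and 775 CPM. A UMI of ARNT2 was found in 91.1% of ciliated-like nuclei (56.9% after thinning) and in 7.03% of macrophage-like nuclei (3.09% after thinning), whose median depths were 6080 and 1485 UMIs.

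TOX was the exception among the 9. In progenitor-like GCs it was 298, 112, 179 and 203 CPM, above the 162, 32.4, 71.6 and 48.6 CPM of cumulus-like GCs in each goat. In mural-like GCs it was 262, 408 and 197 CPM, above progenitor-like GCs in 2 of 3 goats and level with them in Nubian replicate 2. Cycling GCs held 2 kinds of nuclei by TOX. Subcluster 9, with 33 nuclei of Du'an replicate 2 and 738 of Nubian replicate 1, had 505 and 588 CPM, whereas subcluster 10 had 35, 8, 68 and 19 CPM. The spread of TOX over goats in all cycling GCs, 28.1 to 538 CPM, moved with the share of subcluster 9. In cluster 4 TOX was 1759, 84.6, 493 and 1272 CPM, high in the 2 goats that gave nearly all of its nuclei. Cluster 4 held 45.2% of all TOX UMIs and progenitor-like GCs 6.41%.

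**Figure D2:**
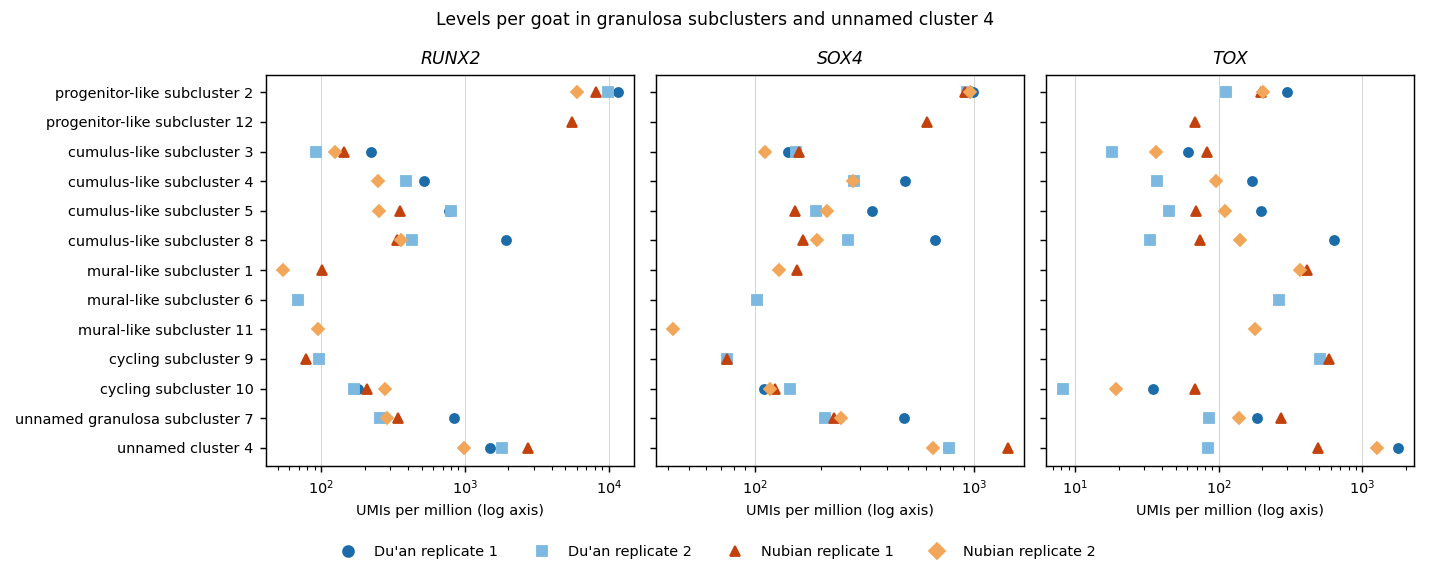
Levels of RUNX2, SOX4 and TOX in CPM (log axis) in each granulosa subcluster and in unnamed cluster 4, with 1 point per goat with at least 20 nuclei. RUNX2 is at least 5513 in progenitor-like subclusters and at most 2724 elsewhere, whereas TOX is highest in cluster 4 of Du'an replicate 1 and Nubian replicate 2 and differs between cycling subclusters 9 and 10.

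Counted over the genes, 8 of the 9 were above both cumulus-like and mural-like GCs in every goat that had them, all but TOX, and 16% of the 7939 genes did the same. The genes were chosen on this contrast, so nothing is read from the count. Their median log2 difference was 1.09 from cumulus-like and 1.80 from mural-like GCs, and -0.12 and 0.04 over all 7939 genes. With nuclei classed by markers in place of clusters, RUNX1 and STAT3 also left the list, for 6 of 9. Against cluster 4, RUNX1, RUNX2 and ARNT2 were higher in progenitor-like GCs in all 4 goats (16.5% of genes were), STAT3 was lower in all 4 (17% of genes were), and the other 5 went either way. The STAT3 difference was small, -0.14 ± 0.07 (SD) on the log2 scale. Its ranges overlapped, at 160 to 243 CPM in progenitor-like GCs and 181 to 250 CPM in cluster 4. By mean, 4 of the 9 were highest in a named class outside GCs, RUNX1 in macrophage-like, STAT3 in blood endothelial-like, ARNT2 in ciliated-like and TOX in T or natural killer-like nuclei, where 83% of 13237 genes were highest outside GCs.

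**Figure D3:**
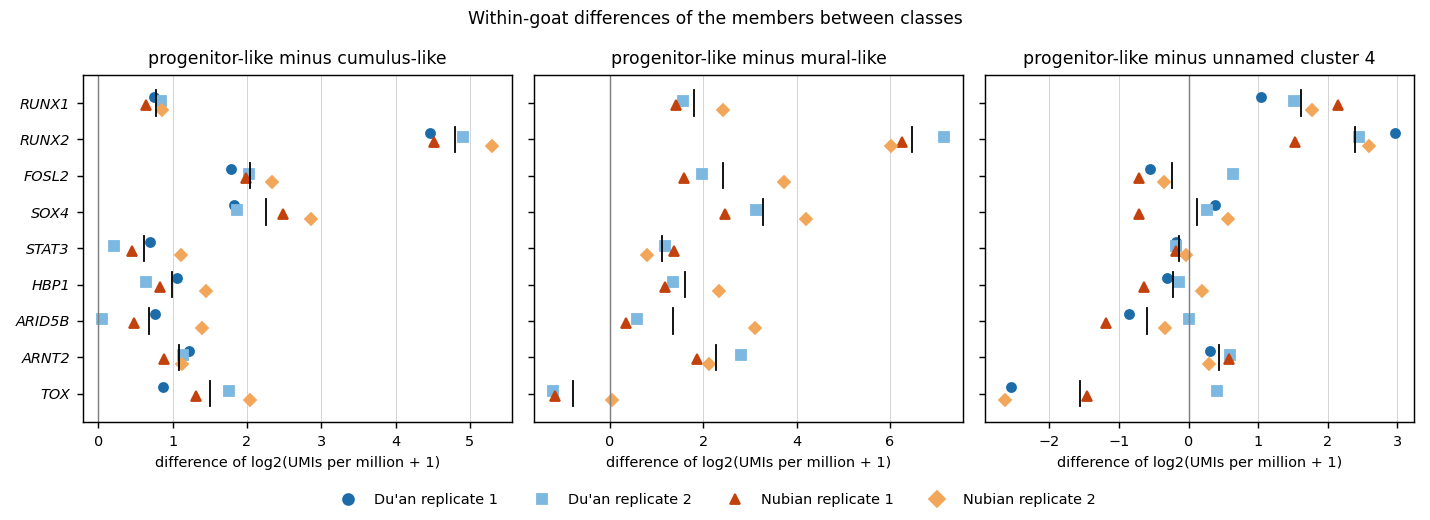
Difference of log2(CPM + 1) within each goat between progenitor-like GCs and cumulus-like GCs (left), mural-like GCs (middle) or unnamed cluster 4 (right), with 1 point per goat and a black bar at the mean. All 9 genes lie above 0 on the left, TOX falls below 0 in 2 of 3 goats in the middle, and the genes part to either side of 0 on the right.

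In the authors' table of GC subtypes, all 9 genes were listed for common progenitor GCs. The authors' pooled shares of nuclei with the gene there, which have no replicate error, against the other GCs, were 84.6% and 42.3% for RUNX2, 73.0% and 37.7% for SOX4, 53.4% and 24.2% for FOSL2, and 51.0% and 27.8% for ARNT2. RUNX1 was nearly level (50.9% and 49.3%) and was also listed for cumulus GCs (56.4% and 46.1%). TOX was listed at 46.1% and 28.0%, whereas in the classes built here it had a UMI in 28.5% of progenitor-like nuclei and 57.2% of cluster 4 nuclei. The authors' stage table gave the primordial stage nearly the shares of common progenitor GCs, such as 84.6% for RUNX2, and listed RUNX1 (61.4%) and STAT3 (39.5%) also for the primary stage. The 2 tables come from the same nuclei and list only genes that passed the authors' own test as higher, so a missing gene has no value.

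Cell types were compared without clusters, in nuclei gated by at least 2 markers of a type, with UMI sums per goat and a goat term (edgeR quasi-likelihood test, adjusted over 12140 genes). A gated class was set against the mean of the others. Of 90 contrasts (9 genes in 10 classes) 49 passed an adjusted p of 0.05, where 28.8% of all contrasts did. Outside gated granulosa nuclei, which include the progenitor-like nuclei that the choice of genes used, 42 of 81 passed (21 higher and 21 lower), where 27% of all contrasts did. Gated granulosa nuclei were still part of the mean in each of the 81 contrasts. Neither the count nor the differences and p-values below are thus free of the values that chose the genes. Nothing is read from the count.

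In gated T or natural killer nuclei 2 of the 9 genes were higher and 3 lower, where 28.5% of genes were higher and 22.8% lower. TOX was higher, with 1759, 1255, 1029 and 780 CPM (log2 difference 3.18 ± 0.26, SE, adjusted p = 1.74e-12). RUNX2 was also higher, at 1636, 1249, 1105 and 755 CPM (2.01 ± 0.31, adjusted p = 1.18e-06). Both genes were highest in Du'an replicate 1 and lowest in Nubian replicate 2. The thinned share of T or natural killer-like nuclei with a RUNX2 UMI, 59.3%, lay above the 10.4% of epithelial-like nuclei. SOX4 (-2.57 ± 0.30), ARNT2 (-2.71 ± 0.30) and FOSL2 (-2.07 ± 0.28) were lower.

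In gated macrophage nuclei 2 genes were higher and 4 lower (27.9% and 22% of genes). RUNX1 was higher, at 911, 940, 1097 and 687 CPM (2.55 ± 0.25, adjusted p = 1.34e-10), and ARID5B was higher as well (1.16 ± 0.20, adjusted p = 5.34e-06). RUNX2 was lower, at 164, 36.6, 117 and 109 CPM (-1.99 ± 0.44, adjusted p = 2.57e-04). RUNX1 in gated T or natural killer nuclei was 180, 180, 144 and 55.7 CPM. By level, RUNX1 was thus higher in macrophage nuclei and RUNX2 in T or natural killer nuclei, with no overlap for either gene. In macrophage nuclei ARNT2 (-2.95 ± 0.32), SOX4 (-1.90 ± 0.29) and TOX (-1.47 ± 0.39) were lower too. TOX lost its call there without Du'an replicate 2 (-0.76, adjusted p = 0.104) or Nubian replicate 2 (-0.79, adjusted p = 0.0732).

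In gated blood endothelial nuclei, the lining of blood vessels, 2 genes were higher and 5 lower (16.5% and 8.46% of genes). STAT3 was higher, at 265, 343, 254 and 245 CPM (0.88 ± 0.18, adjusted p = 1.45e-04), and so was FOSL2 (0.97 ± 0.20, adjusted p = 2.30e-04). With all gated nuclei this was the one class in which STAT3 passed the test. RUNX1 (-2.58 ± 0.40), RUNX2 (-1.51 ± 0.41), ARNT2 (-2.22 ± 0.28), ARID5B (-0.71 ± 0.23) and TOX (adjusted p = 1.12e-04) were lower, and ARID5B had nearly the same difference without Du'an replicate 1 (-0.72) but missed the limit there (adjusted p = 0.0575). In gated lymphatic endothelial nuclei no gene was higher and 4 were lower (14.7% and 8.95% of genes), RUNX1 the most (-2.69 ± 0.43).

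Ciliated and epithelial nuclei passed the gate in 2 goats each. Over all goats the gates held 120 ciliated and 60 epithelial nuclei, so low levels in these classes rest on few UMIs. In ciliated nuclei, which carry motile cilia, 4 genes were higher and 2 lower (17.9% and 7.42% of genes). ARNT2 was higher, at 789 and 962 CPM (3.86 ± 0.23, adjusted p = 3.44e-16), as was TOX, at 681 and 791 CPM (3.01 ± 0.37, adjusted p = 3.10e-08). SOX4 (1.90 ± 0.28) and RUNX1 (1.26 ± 0.41) were higher with them, and HBP1 (-1.66 ± 0.37) and ARID5B (-2.27 ± 0.39) were lower. RUNX1 lost its call when the goat term was left out of the edgeR fit (1.00, adjusted p = 0.133). In epithelial nuclei, with all gated nuclei in the test, ARNT2 was the 1 gene that was higher (2.48 ± 0.27, adjusted p = 6.97e-09) and 2 were lower (11% and 6.09% of genes). RUNX2 was lower there, at 12.7 and 38.5 CPM (-3.71 ± 0.80, adjusted p = 7.61e-04), and FOSL2 too, at 25.4 and 41.7 CPM (-1.52 ± 0.44). Both levels are near the floor for so few nuclei, so the size of these differences is uncertain.

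In gated stromal nuclei 4 genes were higher and 0 lower (16.2% and 4.28% of genes), and in gated smooth muscle nuclei 3 were higher and 1 lower (12.1% and 4.37% of genes). Part of these calls turned on a few nuclei. RUNX2 was 2402, 2377, 1265 and 292 CPM in 453 gated smooth muscle nuclei (2.29 ± 0.32), of which 28 lay in GC clusters or cluster 4. Without those it was 747, 87.7, 349 and 296 CPM, and the difference was 0.14 ± 0.32 (adjusted p = 0.885). In gated stromal nuclei the same step, which took 112 of 1416 nuclei, left RUNX2 higher (1.86 ± 0.32 before and 1.05 ± 0.27 after, adjusted p = 0.00462), but without Nubian replicate 2, with all gated nuclei, it was 0.80 (adjusted p = 0.102). The step ended the calls of SOX4 (0.89 before and 0.57 after, adjusted p = 0.0886) and HBP1 (0.55 and 0.46, adjusted p = 0.101) in stromal nuclei and of ARID5B in smooth muscle nuclei (0.71 and 0.47, adjusted p = 0.143). It also added calls. RUNX1 (-1.29, adjusted p = 0.0275) and STAT3 (-0.95, adjusted p = 0.00507) became lower in smooth muscle nuclei. TOX became lower in fibroblast nuclei (-1.58, adjusted p = 0.00153) and higher in epithelial nuclei (1.17, adjusted p = 0.0267). FOSL2 in gated smooth muscle nuclei passed before (1.57 ± 0.22) and after (1.18 ± 0.25). In gated fibroblast nuclei 3 genes were higher and 0 lower (11.2% and 2.89% of genes). RUNX1 among them (1.04 ± 0.32) rested on Nubian replicate 1, at 1099 CPM against 97.7 to 330 CPM in the other goats, and was 0.02 without that goat. RUNX2 (1.31 ± 0.34) was 0.46 without Du'an replicate 2 (adjusted p = 0.521). It also lost its call without Nubian replicate 1 (1.07, adjusted p = 0.106) or Nubian replicate 2 (0.96, adjusted p = 0.0643). The same held when the goat term was left out of the edgeR fit (1.18, adjusted p = 0.0572). FOSL2, also among these 3 genes (0.74 ± 0.24), lost its call without Du'an replicate 1 (0.76, adjusted p = 0.0825). Without Du'an replicate 2 (0.38, adjusted p = 0.502) or Nubian replicate 2 (0.63, adjusted p = 0.0782) FOSL2 lost it as well.

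In gated granulosa nuclei, given as a description, 7 of the 9 genes, all but HBP1 and STAT3, were called higher than the mean of the other classes, where 27.8% of genes were called higher and 17.3% lower. With another scaling (RLE) 16.3% of genes were called higher and 23.4% lower, with DESeq2 14.8% and 30.4%, and FOSL2, SOX4 and ARNT2 lost their calls with either, as did RUNX1 and TOX with DESeq2. Without Du'an replicate 1 the calls of RUNX1, FOSL2 and ARNT2 were lost, and without Nubian replicate 2 that of FOSL2. RUNX2 was at 2838, 398, 464 and 1211 CPM. The 2 high goats were also the ones rich in progenitor-like and cluster 4 nuclei, and the part of these nuclei in the RUNX2 level was not tested.

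**Figure D4:**
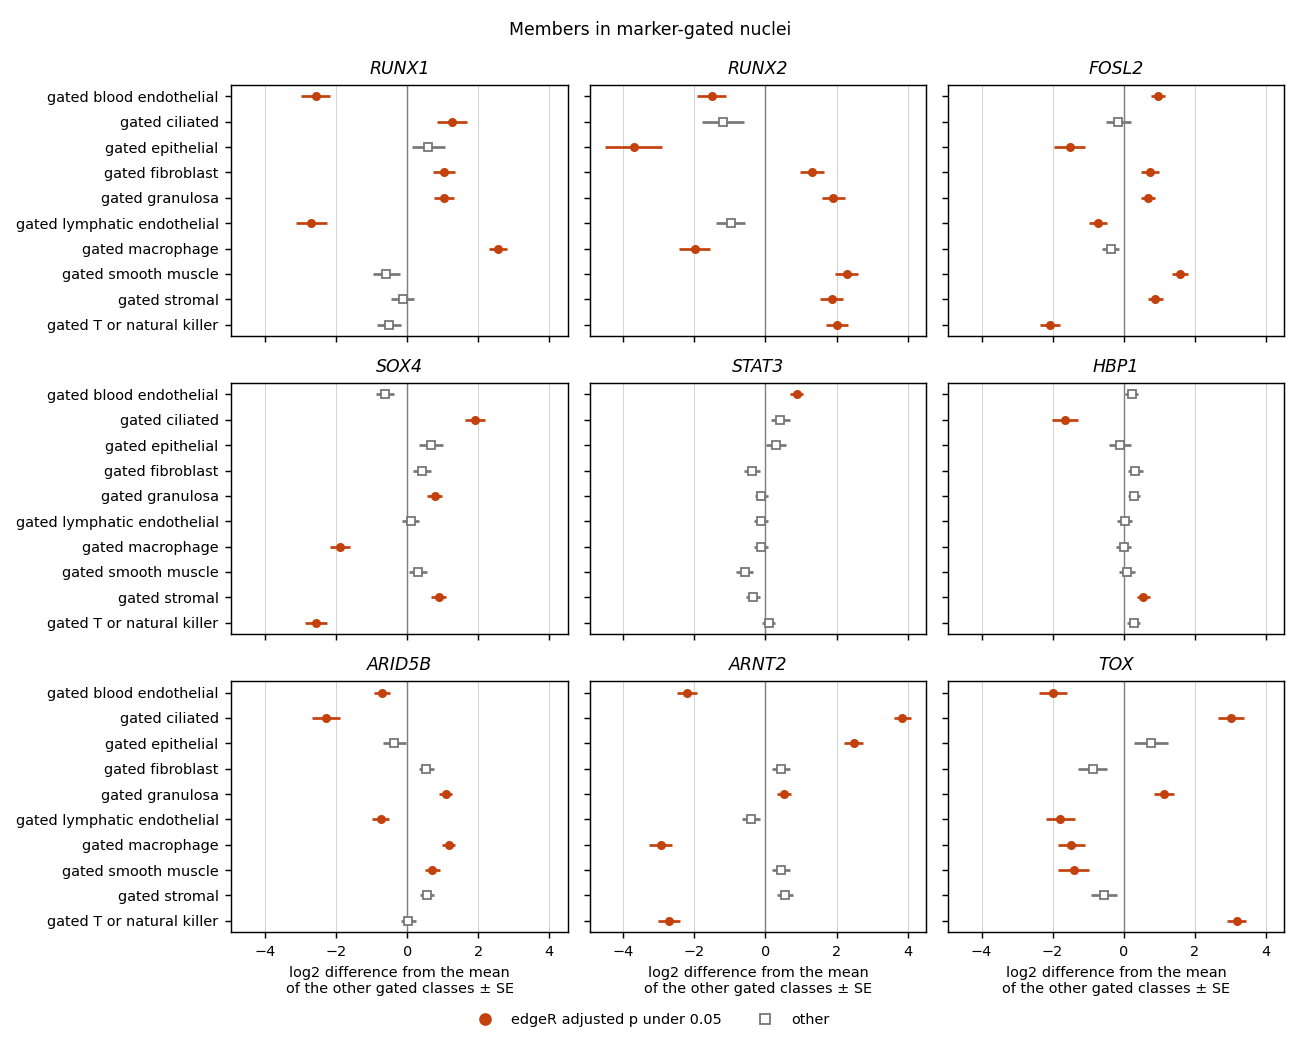
Log2 difference of each gene between a marker-gated class and the mean of the other gated classes, with its SE; filled circles passed an adjusted p of 0.05 (edgeR, sums per goat, 4 goats, and 2 for ciliated and epithelial nuclei). RUNX1 and RUNX2 point in opposite directions in macrophage nuclei, and TOX is highest in T or natural killer and ciliated nuclei. The gated granulosa values are a description, since the choice of genes used part of these nuclei.

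Between breeds, no gene of the 9 passed the test in any class. In 14 classes with 4 goats, 126 tests were made (edgeR quasi-likelihood, 2 against 2 goats), the lowest adjusted p was 0.453, and 4 tests had an unadjusted p under 0.05 (4.01% of all tests did). Over all genes the share called was 0.00492%, with 0.0442% in cluster 4, 0.011% in unnamed cluster 7 and 0% in the other 12 classes. DESeq2 also called 0 for the 9 genes. The breeds did not overlap in 33 of the 126 tests, 26.2%, where 31.4% of all genes did not. SOX4 in cumulus-like GCs had the lowest unadjusted p, 0.00130, with 277 and 252 CPM in Du'an and 154 and 131 CPM in Nubian goats (log2 Nubian minus Du'an -0.94 ± 0.15, SE). In progenitor-like GCs RUNX2 was lower in both Nubian goats (-0.69 ± 0.38, adjusted p = 1.00), and ARNT2 was lower in both (-0.53 ± 0.21, adjusted p = 1.00). TOX in cycling GCs differed by 2.43 ± 1.33, with Nubian replicate 1 at 538 CPM and Nubian replicate 2 at 28.1 CPM. It was called without Nubian replicate 2 (3.34, adjusted p = 0.00400), and TOX in cluster 4 was called without Du'an replicate 1 (3.36, adjusted p = 1.28e-04), each leaving 1 goat in a breed.

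**Figure D5:**
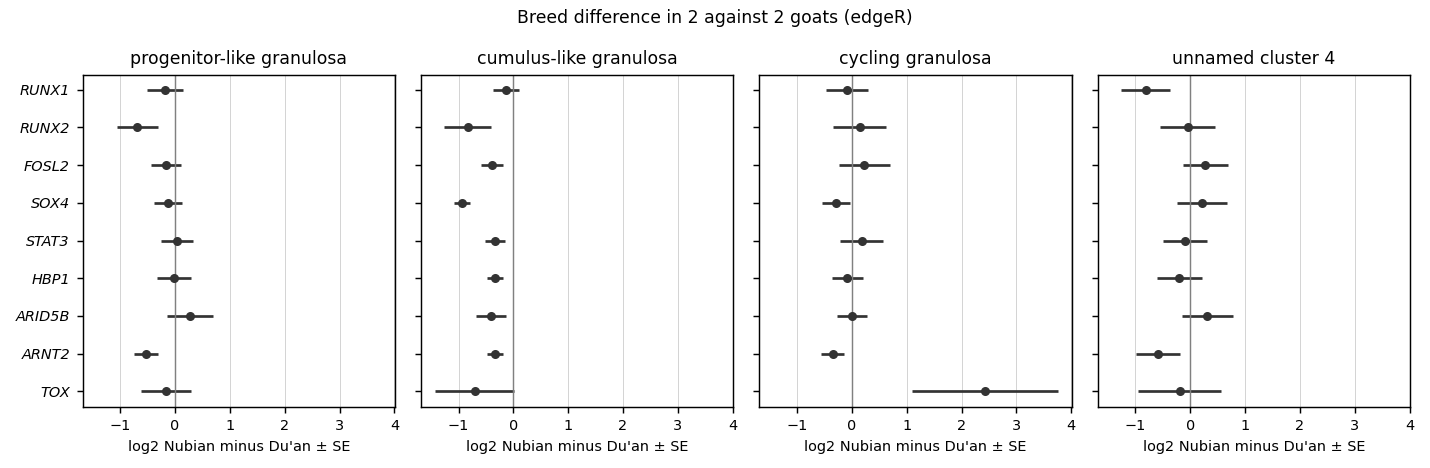
Log2 difference Nubian minus Du'an of each gene with its SE in 3 GC states and unnamed cluster 4, from 2 against 2 goats. None of the values passed the test after adjustment, and TOX in cycling GCs has the longest bar.

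The relatives and partners of the 9 genes were read from 7 lists of 59 genes, 58 of them in the files and 32 with a mean of at least 10 CPM in GCs. Of these 32, 6 were above both other states in progenitor-like GCs in every goat and 8 were below, where 16% of all 7939 genes were above and 17% below. CBFB, the RUNX partner, was among the 6, at 80.1 ± 10.9 CPM against 51.5 ± 8.33 CPM in cumulus-like GCs. The others were JAK1 and TYK2, kinases upstream of STAT3, EPAS1 and ARNTL, bHLH-PAS factors, and ARID3A. In the JAK-STAT list the kinase JAK3 (31.3 ± 16.7 against 112 ± 35.5 CPM in cumulus-like GCs) and the receptor IL6R (11.1 ± 5.08 against 26.9 ± 13.4 CPM) were below both states in every goat. The highest AP-1 gene there, JUN, had 112 ± 82.3 CPM and was not above both states in every goat, nor were FOS and JUND, the other AP-1 genes with a mean of at least 10 CPM over the GC states. ATF3 and JUNB, under that mean, were above both states in every goat, by 1.62 and 1.61 on the log2 scale from cumulus-like GCs. From mural-like GCs the differences were 2.40 and 2.12. ATF3 was at 19.99 ± 26.88 CPM in progenitor-like and 3.31 ± 1.72 CPM in cumulus-like GCs. JUNB was at 14.63 ± 12.97 and 3.15 ± 0.443 CPM. These levels are low and vary widely over goats, so the size of the differences is uncertain. In other lists STAT6, SOCS3, OSMR, ARNTL2 and ARID5A, also under that mean, were above both states in every goat too. The highest bHLH-PAS gene, HIF1A, went against ARNT2, at 443 ± 281 CPM in progenitor-like and 1271 ± 448 CPM in cumulus-like GCs. TOX2 went against TOX in that comparison, at 204 ± 64.0 and 902 ± 128 CPM. Mural-like GCs had 1045 ± 97.1 CPM of TOX2, and from these both genes were lower by mean in progenitor-like GCs (log2 difference -2.29 for TOX2 and -0.79 for TOX). CBFA2T2, a co-repressor of the RUNX partner list, was below both states, at 96.7 ± 11.1 against 138 ± 3.58 CPM. The highest genes of the other lists were SOX5 (748 ± 280 CPM), IL6ST, the receptor chain upstream of STAT3 (796 ± 192 CPM), and ARID1B (974 ± 134 CPM). In gated granulosa nuclei 15 of 55 tested list genes were higher than in the other gated classes and 17 lower, where 27.8% of all genes were higher and 17.3% lower, and 7 of 10 AP-1 genes were lower. With RLE, which moved the values of this class by -0.29 on the log2 scale, the counts were 11 and 20, where 16.3% and 23.4% of all genes were. No list gene passed the breed test in any class.

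Over all 64 sums of a class and goat, the gene most like RUNX2 was HIPK2 (Pearson's r = 0.78), a kinase of nuclear regulators, followed by TOP1 (0.72) and BACH2 (0.70). BACH2 was also most like HBP1 (0.71), and RUNX2 came next for HBP1 (0.69). ARNT2 was most like BMPR1B (0.78), MACROD2 (0.76) and CFAP69 (0.76), and STAT3 most like CAMK2D (0.73), PPP3CA (0.70) and SNX16 (0.66). SOX4 was most like PTOV1 (0.72), ZNF444 (0.72) and MSH6 (0.69), and FOSL2 most like HACD2 (0.68), SOX4 (0.63) and THBS1 (0.63). ARID5B followed UST (0.70) and SLC40A1 (0.68). RUNX1 followed SND1 (0.66), P4HA1 (0.65) and NOTCH2 (0.64). TOX had the weakest likeness, to UBE2H (0.58), NDFIP2 (0.56) and AK3 (0.54). Within the 19 sums of GC states and cluster 4, SOX4 and HBP1 (0.96) and FOSL2 and SOX4 (0.94) ran closest, and RUNX1 and TOX were the one pair with a negative value (-0.32). The sums share libraries and depth, so these values are descriptions.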

How the data were processed

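The authors deposited UMI counts per gene and nucleus for 4 libraries, whole numbers filtered to nuclei and not normalized (Cell Ranger 5.0.0 in the submitters' processing notes, 3.1.0 in the file header), and 2 tables of GC markers, whose shares of nuclei are fractions given by the authors and printed here as percent. Their fold changes and p-values were not used. The genes, marker lists and tests were chosen with earlier results of these data known. Nuclei within the mean ± 2 SD of UMIs and genes of their library and with up to 20% mitochondrial UMIs were kept. Scrublet marked 0 doublets and so had not worked, and doublets were not removed. Counts scaled to 10000 UMIs, 2000 variable genes without members and markers, 30 components and 20 neighbours gave Leiden clusters (scanpy 1.11.5, leidenalg 0.10.2) at a resolution of 0.8, and 0.5 within granulosa. A name needed at least 3 markers up (10 CPM, log2 fold of 1). Shallow clusters (median UMIs under 0.4 of their library's) with fewer than 2 own markers among their 10 leading genes stayed unnamed, a limit set after seeing the data. A gate needed 2 markers and a lead of 2 over any other list. UMI sums per goat were tested with edgeR 4.0.16 (TMM, filterByExpr, Benjamini-Hochberg), with DESeq2 1.42.0 as an alternative. The tests were run on simulated counts with 200 genes changed 4-fold and the same fixed dispersion for every gene. The breed test in progenitor-like nuclei recovered 193 with 6 false calls among 11710 genes, and the gated T or natural killer test 200 with 4 among 12140. Real genes differ in dispersion, and the simulated sums shared a common profile with no other difference between classes or goats. These numbers therefore do not give the power in the goats and do not check the scaling between classes. Named were the 9 genes, list genes that passed the breed test or were highest per list in progenitor-like GCs, and the 3 genes most like each member, of which 1 is not reported here. The other list genes named were chosen after their values were seen. P-values of the breed test measure the spread between goats of a breed, 1 library each. Those of the gated test, with its goat term, measure how class differences vary over goats. That spread was estimated per gene over all gated classes together, also for classes present in 2 goats.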

Additional observations from a re-analysis of the deposited data

How the results depend on the processing

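Under 13 other settings (3 other resolutions, marker gates, doublet scores, TMM-scaled CPM, thinning, each goat left out and 2 chosen after seeing the data, without shared barcodes and with cluster 4 counted as progenitor-like), 6 to 8 of the 9 genes stayed above both other GC states, and ARID5B left with first resolutions of 0.4 and 1.2 and with TMM-scaled CPM, but not with a second resolution of 1.0. The log2 difference of RUNX2 from cumulus-like GCs ran from 3.68 with marker gates to 4.91, and that of RUNX1 from 0.26 with marker gates to 0.82. The count of genes highest outside granulosa was 4, and 5 with marker gates and without Du'an replicate 1 or Nubian replicate 2. The breed test called 1 member with no filter on low counts (TOX in cycling GCs, log2 2.46, adjusted p = 2.09e-09), and between 0 and 1 when a goat was left out: TOX in cluster 4 without Du'an replicate 1 (adjusted p = 1.28e-04) and TOX in cycling GCs without Nubian replicate 2 (adjusted p = 0.00400), where the lone sample of a breed was assumed to vary like the others. RLE, DESeq2 and marker gates called 0. Replicate numbers do not pair the goats (correlations of same-numbered deviations from -0.25 to 0.22), and the replicate block and the crossed pairing, chosen after seeing the data, each called 0. Of the 90 gated contrasts 49 passed, 35 to 43 when a goat was left out (72 contrasts could be tested without Du'an replicate 2 or Nubian replicate 2), 43 to 51 under the other settings, and 48 without gated nuclei in GC clusters, also chosen after seeing the data. In gated granulosa nuclei, whose calls are a description, FOSL2, ARNT2 and SOX4 lost their calls with RLE and with DESeq2, and RUNX1 and TOX with DESeq2. RUNX1, FOSL2 and ARNT2 also lost theirs there without Du'an replicate 1, and FOSL2 without Nubian replicate 2. No called value reversed. Among other gated calls, HBP1 in stromal and FOSL2 in lymphatic endothelial nuclei lost theirs in 7 alternatives each. TOX and ARID5B in smooth muscle nuclei and RUNX2 in fibroblast nuclei lost theirs in 4 each. Some sums hold few nuclei, such as 38 pericyte-like nuclei of Nubian replicate 2 and 45 cluster 4 nuclei of Nubian replicate 1, which limits those values.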

Other observations

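The shares of UMIs differed among the 9 genes. Progenitor-like GCs and cluster 4 held 69.6% and 10.7% of RUNX2 UMIs, 30.3% and 24.5% of SOX4, 20.1% and 28.7% of FOSL2, and 14.8% and 26.3% of ARID5B UMIs. Of RUNX1 UMIs progenitor-like GCs held 39.9%, 6.27%, 9.47% and 37.1% in the 4 goats and cumulus-like GCs 20.4%, 43.7%, 19.2% and 19.1%, so the order of these classes by share turned between goats. A share also depends on how many nuclei a class held. By level RUNX1 was higher in progenitor-like than in cumulus-like GCs in all 4 goats.

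A small second progenitor-like subcluster, 92 nuclei of Nubian replicate 1, had 5513 CPM of RUNX2, 616 CPM of RUNX1 and 350 CPM of ARNT2, against 8212, 371 and 209 CPM in the main subcluster of the same goat. It comes from 1 goat, so the difference has no replicate.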
